A study of Mus musculus with 4 samples.

Results

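Open chromatin in the emptiest stretches of the mouse autosomes was examined in B16-F10 cells, a mouse melanoma line, by ATAC-seq, an assay in which a transposase cuts and tags accessible DNA. The 4 libraries were 2 knockout (KO) libraries, from cells electroporated with Cas9 and a mixture of guides against Ssbp4, and 2 wild-type (WT) libraries. Per the labels' protocols, the control guide was directed at an intergenic site on chromosome 2, and all cells were thawed from frozen stocks before nuclei were tagged. The labels do not state whether the edited cells were a clone or a pool, nor whether replicates were separate cultures, so the spread between replicates may be technical. The calls of the 4 libraries on chromosomes 1 to 19 were merged into 71187 union regions, which were counted by midpoint in fixed bins of 1 Mb. The regions described here, chosen by the number of called regions in their bin, are the 2336 union regions (3.28%) in bins that held 1 to 8 of them. The other 68851 regions are set beside them. A region was counted whichever library called it, so genotype did not enter, but the choice rests on the same calls that are described below, and a region seen in 1 genotype alone also adds 1 to its own bin.

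Megabases with few open regions are often poor in genes, and such domains tend to be late replicating, rich in A and T and attached to the nuclear lamina, where most DNA is compact. Open sites inside them are typically distal elements or the promoters of widely spaced genes, many of which serve tissues other than the one studied. SSBP4 belongs to a family of proteins that bind the LIM-domain-binding cofactors, which link transcription factors at distal enhancers and promoters. Positions are given in the GRCm39 build. The genes and bases at these positions were not used here, because the gene table and sequences at hand belong to another build, so regions are named by position alone, and the labelled cell type was not checked against marker genes.

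The regions occupied 623 sparse bins, 26.6% of the 2339 bins with any region, where the median bin held 22 regions and the fullest 149. A further 73 bins between occupied ones held none. Of the sparse bins, 128 held 1 region, 107 held 2 and 43 held 8, just inside the limit, while 49 bins held 9, just outside it. All 19 chromosomes contributed. Chromosome 14 had the highest share of sparse bins (38.3%) and chromosome 19 the lowest (16.1%). As a share of a chromosome's own open regions, those in sparse bins ranged between 1.38% on chromosome 11 and 5.71% on chromosome 3, and chromosome 1 supplied the largest number, 218.

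Sparse bins occurred singly and in runs. Where empty bins ended a run, they formed 322 runs of adjacent bins, of which 175 were a single bin. Thus 175 of the 623 sparse bins stood alone, and the rest adjoined another sparse bin. The longest of these runs spanned 8 Mb. Where empty bins were bridged there were 309 runs, and the longest, on chromosomes 15 and 14, spanned 11 Mb. The runs named here are those ended by empty bins. The run at 23000001–31000000 of chromosome 4 held 34 regions, of which 16 and 21 were called in KO replicates 1 and 2, against 34 and 33 in WT replicates 1 and 2. Both WT libraries thus lay above both KO libraries there, and 13 of the 34 were called in both WT libraries and in neither KO library. The run at 55000001–63000000 of chromosome 5 held 33 regions, with 23 and 24 called in the KO libraries against 26 and 32 in the WT libraries. The run at 107000001–115000000 of chromosome 14 held 21, with 14 and 14 against 18 and 19. Both WT libraries also had more calls than both KO libraries over the other regions of the genome, where KO replicates 1 and 2 called 69.3% and 79.2% and WT replicates 1 and 2 called 81.3% and 86.4%. On chromosome 5 the KO libraries called 69.7% and 72.7% of the run and the WT libraries 78.8% and 96.97%. On chromosome 14 the KO libraries called 66.7% each and the WT libraries 85.7% and 90.5%. In these 2 runs the gap between the genotype means was wider than over those other regions. Over all sparse-bin regions the gap was wider too, with 57.6% and 64.3% called in the KO libraries and 73.3% and 81.5% in the WT libraries. The run on chromosome 5 was close to that gap. The run on chromosome 4 had a still wider gap, with 47.1% and 61.8% in the KO libraries against 100% and 97.1% in the WT libraries. The runs were picked for their length, and their differences from the gap over all sparse-bin regions or over the other regions were not tested. Among the 7 Mb runs, 73000001–80000000 of chromosome 4 had 20 and 20 of 30 regions called in the KO libraries against 27 and 28 in the WT libraries. At 14000001–21000000 of chromosome 15 the genotypes met, with 9 and 12 of 20 in the KO libraries against 12 and 15 in the WT libraries.

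Most of these regions had no close neighbour. The median distance to the nearest other union region was 49429 bp, against 5675 bp for the other regions. The nearest region lay more than 100000 bp away for 770 of them (32.96%), against 0.954% of the others. Not every one was alone: 272 (11.6%) had a neighbour within 5000 bp, against 44.4% of the others, so small groups of open sites also occur in otherwise empty megabases. Distance is tied to the rule through the count per bin, and the values describe the regions.

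**Figure D1:**
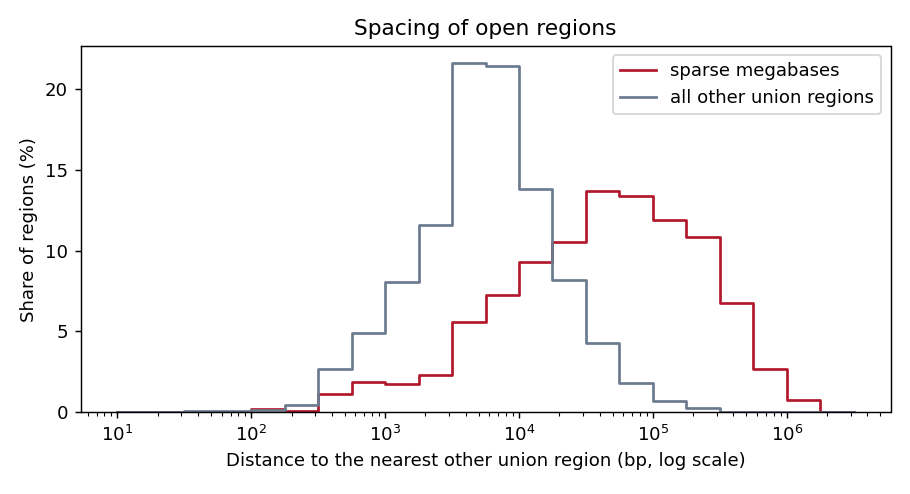
Distribution of the distance from each union region to the nearest other one (x axis, bp on a log scale) as a share of regions (y axis, %), for regions in sparse megabases and for all other union regions. The sparse-megabase curve is shifted to the right, with medians of 49429 bp and 5675 bp.

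The regions were shorter than the rest and their calls ranked lower within each library. Their median length was 702 bp against 920 bp for the others. Each library's calls were ranked within its own list by the −log10 p-value deposited by the authors. The median call in sparse bins stood at the 41.0 and 42.8 percentile of KO replicates 1 and 2 and at the 44.2 and 42.9 percentile of WT replicates 1 and 2, below the 50.2 percentile of other calls in each list. The median fold enrichment over local background, as deposited by the authors, was 4.35 and 4.66 in the KO lists and 5.93 and 6.07 in the WT lists. For other calls it was 4.57 and 4.72 in the KO lists and 5.83 and 6.16 in the WT lists. The fold in sparse bins was thus close to that elsewhere in the same list. Folds of different lists are set side by side here and below without a comparison, since each is relative to its own library's background.

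Read numbers at and around these calls were lower. The pileup and the local background of each call were recovered from its fold and p-value. The median summit pileup was 81 and 88.5 reads in KO replicates 1 and 2 against 118 and 122 for other calls, and 97 and 102 in WT replicates 1 and 2 against 134 and 143. The lowest local background was 17.2 and 17.4 reads in KO replicates 1 and 2 and 14.7 and 15.1 reads in WT replicates 1 and 2, so both KO libraries lay above both WT libraries. The local background was at the lowest level of the library for 68.4% and 70.0% of sparse-bin calls in the KO lists and 68.1% and 69.7% in the WT lists. Among other calls the shares were 28.7% and 30.1% in the KO lists and 33.6% and 36.6% in the WT lists. In all 4 libraries, then, calls in empty megabases had fewer reads at the summit and more often stood on the lowest background. In bulk cells, a site open in fewer cells and a site less open in each cell cannot be told apart.

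Regions in sparse megabases were called in all 4 libraries less often and split by genotype more often. Of the 2336, 1045 (44.7%, Wilson 95% interval 42.7–46.8) were called in every library, against 61.4% of the other regions and a background of 60.8% over all union regions. Regions with calls in both WT libraries and in no KO library are termed lost, and those with calls in both KO libraries and in no WT library gained. Lost regions numbered 358 (15.3%, interval 13.9–16.8), against 6.77% of the others and a background of 7.05%. Gained regions numbered 90 (3.85%, interval 3.14–4.71), against 1.45% of the others and a background of 1.53%. Both kinds of genotype split were thus more than 2 times as frequent as elsewhere, at 2.26 times for lost and 2.66 times for gained. For both kinds the excess lay among calls at the lowest local background, as given below. The intervals cover counting error only, and regions of 4 libraries are not replicates. With 2 libraries a genotype the smallest exact permutation p is 0.333, so these shares carry no test. Leaving out a library loosens both definitions: without KO replicate 2 the lost share was 23.1% against 14.3% of the others, without WT replicate 1 it was 26.8% against 13.7%. The gained share was 9.19% against 6.56% without KO replicate 1 and 8.95% against 3.97% without KO replicate 2, and with the lists cut to equal length it was 5.89% against 3.38%.

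The remaining patterns account for every region. A call in 1 KO and 1 WT library only, which crosses the genotypes, was seen in 56 regions (2.40%), below the 3.63% of the others. Both WT libraries and 1 KO library called 188 (8.05%), close to the 8.27% of the others. Both KO libraries and 1 WT library called 56 (2.40%), against 1.85% of the others. A call in 1 library only was found in 543 (23.2%), against 16.7% of the others. Of these, 113 were in KO replicate 2 and 109 in KO replicate 1, against 249 in WT replicate 2 and 72 in WT replicate 1. The longest list, WT replicate 2, supplied the most, but the next longest, WT replicate 1, supplied the fewest. KO replicates 2 and 1 alone made up 4.84% and 4.67% of the regions, against 4.93% and 2.29% of the others. WT replicates 2 and 1 alone made up 10.7% and 3.08%, against 6.49% and 2.95%.

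**Figure D2:**
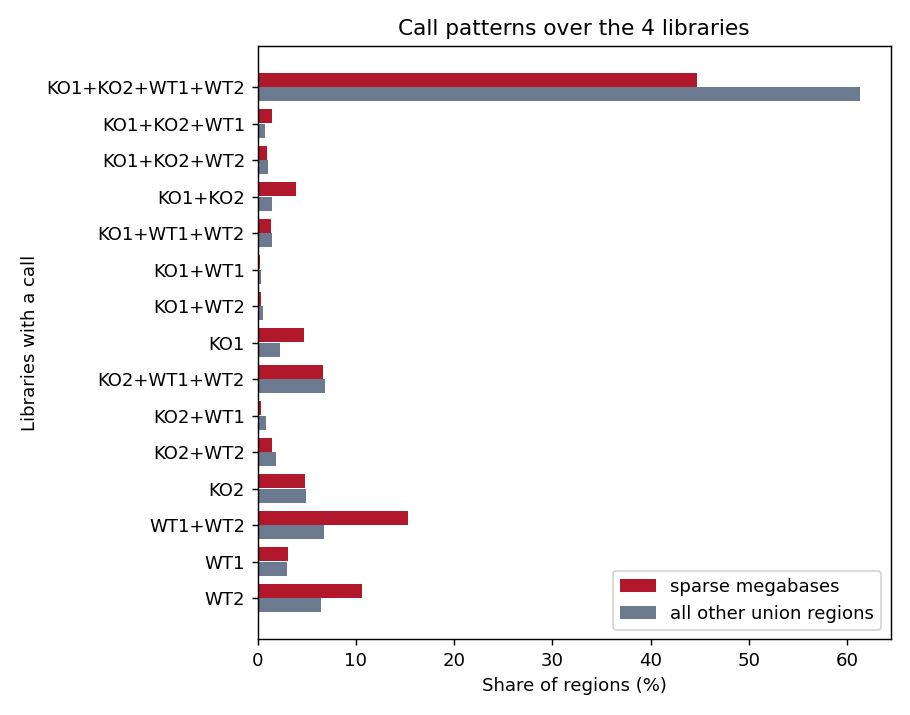
Share of regions (x axis, %) with each of the 15 possible call patterns over the 4 libraries (y axis), for regions in sparse megabases and for all other union regions; KO1, KO2, WT1 and WT2 are the replicates. Patterns that follow genotype, both WT libraries alone (15.3% against 6.77%) and both KO libraries alone (3.85% against 1.45%), are wider in the sparse megabases. Some single-library patterns are wider too, KO1 (4.67% against 2.29%) and WT2 (10.7% against 6.49%). KO2 (4.84% against 4.93%) and WT1 (3.08% against 2.95%) are close to the others.

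Beyond the sparse bins, the share of lost regions was lower in each fuller class, while among the sparse bins it had no order. It was 13.3% in bins with 1 region, 17.8% with 2, 15.6% with 3 to 4, 15.9% with 5 to 6 and 14.3% with 7 to 8. It was 11.97% with 9 to 16, 8.86% with 17 to 32, 6.70% with 33 to 64 and 5.07% in bins with 65 or more. There was no step at the limit itself, with 11.9% in bins of 8 and 13.8% in bins of 9. Gained regions did not follow such a slope. They made up 10.9% in bins with 1 region and 2.80% to 4.08% in bins with 2 to 8, and in fuller bins the share stayed between 1.301% and 1.70%. The value for bins with 1 region is tied to the rule, since such a bin would be empty without its gained region. On all 19 chromosomes the lost share was higher in sparse bins than in the chromosome's other bins, and the gained share was higher on 16 of 19.

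**Figure D3:**
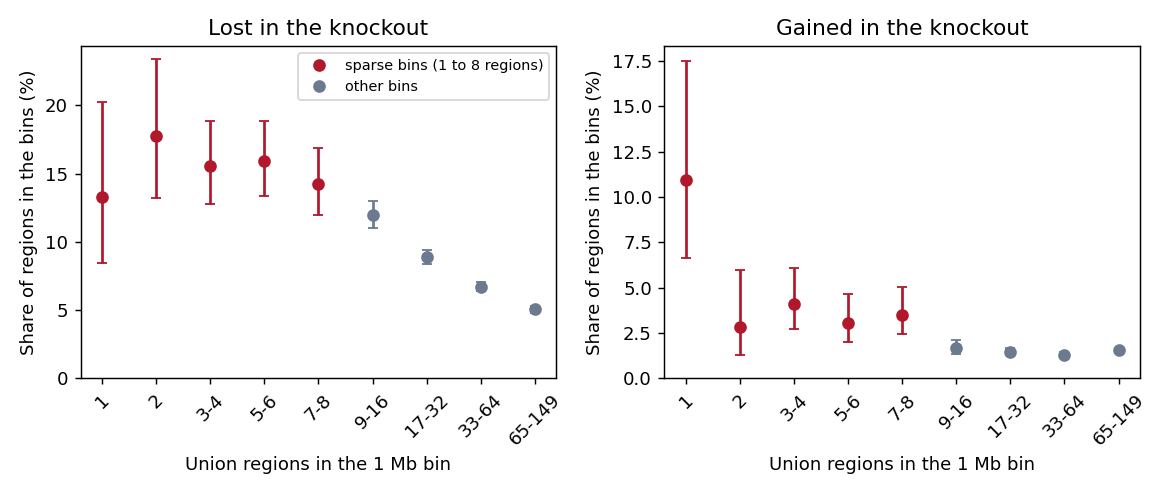
Share of union regions (y axis, %) that were lost (left) or gained (right) in the knockout, by the number of union regions in their 1 Mb bin (x axis). Points are shares and bars are Wilson 95% intervals for counting error. The lost share lies between 13.3% and 17.8% in the sparse bins, without order, and declines beyond them to 5.07% in the fullest bins. The gained share is highest, 10.9%, where a region is alone, a value tied to the rule because such a bin would otherwise be empty.

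The excess of lost regions was found in every class of call strength up to the 75th percentile. Strength was taken as the lower of the percentiles in both WT lists, over the 1591 sparse-bin regions that both WT libraries called. In the weakest class, up to the 10th percentile, 77 of 149 (51.7%) had no KO call, against 33.1% of the others. Between percentiles 40 and 50 it was 43 of 181 (23.8%), against 6.71%. Between percentiles 50 and 75 it was 32 of 428 (7.48%), against 1.36%. The shares fell with strength in both sets, and the intervals of the 2 sets did not overlap in any class below the 75th percentile. The intervals cover counting error only. Regions are not replicates, so this is not a test between genotypes. By length, calls averaging 500 to 750 bp in the WT libraries were lost in 30.05% of 416, against 13.8% of the others, and those over 1000 bp in 1.23% of 486, against 0.387%.

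**Figure D4:**
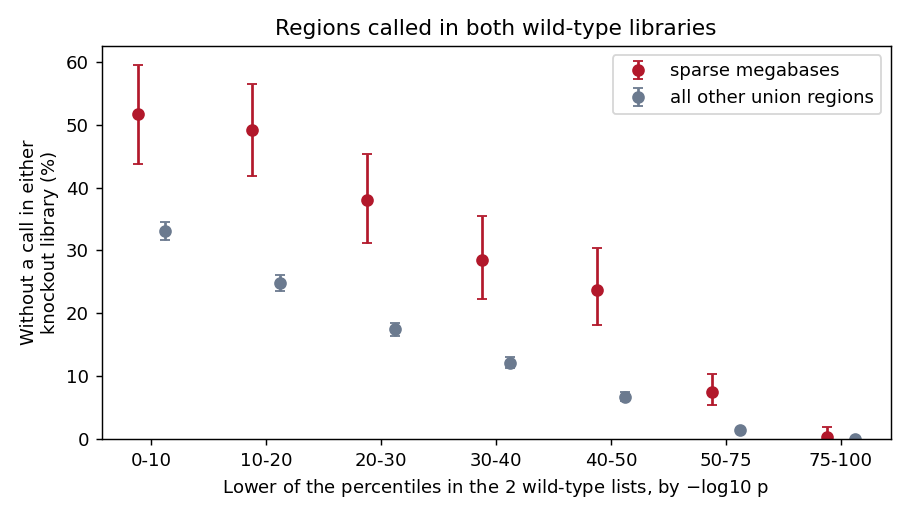
Share of regions called in both wild-type libraries that had no call in either knockout library (y axis, %), by the lower of their percentiles in the 2 wild-type lists (x axis). Bars are Wilson 95% intervals for counting error. Sparse-megabase points lie above the others in each class up to the 75th percentile. Above that percentile 1 of 301 sparse-megabase regions (0.332%) and 0 of 14017 others were lost.

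The low background around these calls moved with the losses. Where both WT calls stood at the lowest background of their library, 343 of 1020 sparse-bin regions (33.6%) were lost, against 20.6% of the other regions at that background. Where they did not, the order was reversed, and 15 of 571 (2.63%) were lost, below the 3.79% of the others. Of the 358 losses in sparse bins, 343 thus lay on the lowest background, and within that class the ratio of the 2 shares was smaller than over all regions. With strength matched as well, between percentiles 40 and 50, it was 25.8% against 10.9%. The lowest background was itself higher in both KO libraries than in both WT libraries, as given above, and its part in the losses was not tested.

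Sparse megabases held more of the strong lost regions than of strong regions in all. A region counts as strong when both WT calls rank above the 50th percentile of their lists. Of 729 strong sparse-bin regions, 33 (4.53%) were lost, against 188 of 27808 others (0.676%) and a background of 0.774%. Of the 33, 30 had both WT calls at the lowest background, where the lost share of strong regions was 30 of 215 (13.95%), against 111 of 1924 others (5.77%), so the ratio of the 2 shares was smaller there. Sparse bins held 2.55% of all strong WT regions but 14.9% of the 221 that were lost. The 33 lay on 13 chromosomes and in 33 different bins, so none shared a bin. With lists of equal length they numbered 18, against 53 elsewhere, and sparse bins held 25.4% of the strong losses. Without KO replicate 2 they numbered 59, against 583 elsewhere, and that share fell to 9.19%. Without WT replicate 1 they numbered 63, against 373 elsewhere, with a share of 14.4%. No call of KO replicate 1 was under 380 bp, and 2 of the 33 and 24 of all 358 measured less than that. None measured less than the shortest call of KO replicate 2, 338 bp.

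The strongest lost region in sparse bins, at 85716060–85716416 of chromosome 18, had folds of 22.2 and 26.4 in WT replicates 1 and 2 and no call in either KO library. It ranked at the 83.2 and 85.9 percentile, shared its bin with 1 other region and lay 251493 bp from the nearest. Second was 42361139–42361868 on chromosome 2, at 12.9-fold in WT replicate 1 and 12.9-fold in WT replicate 2. After it came 79837733–79838614 on chromosome 4, at 11.99-fold and 13.8-fold. All 3 stood at or close to the lowest background of the WT libraries, with summit pileups between 187 and 461 reads.

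The next in rank were also spread over the genome. On chromosome 6, 45250333–45250804 had folds of 11.6 and 13.6 in the WT replicates, and 103373962–103374986 had 10.7 and 10.8. On chromosome 10, 100026667–100027328 had 11.3 and 13.5, and 113942641–113943093, the sole region of its bin and 673940 bp from its neighbour, had 11.3 and 14.3. Neither of these pairs had a KO call. The regions 19365151–19365839 of chromosome 5 (11.1 and 14.1) and 29975308–29976105 of chromosome 1 (11.0 and 12.6) followed. Chromosome 15 held 22856611–22857385 (10.4 and 11.96) and 47773473–47774163 (10.3 and 11.8), and chromosome 18 a second, 52979997–52981456, with 10.0 and 13.2.

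Lost regions were spread over 246 of the 623 sparse bins, and 81 bins held at least 2. Their median length was 534 bp, against 1080 bp for sparse-bin regions called in all 4 libraries. Among chromosomes, the lost share of sparse-bin regions was highest on chromosome 15, with 14 of 57 (24.6%), followed by chromosomes 9, 2 and 4 with 21.1%, 21.1% and 20.6%. It was lowest on chromosome 11, with 5 of 78 (6.41%), and chromosome 17, with 5 of 70 (7.14%). In the other bins of chromosomes 15 and 11 the shares were 6.49% and 4.79%.

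Gained regions were weak calls and lay far apart. None of the 90 was strong, that is, above the 50th percentile of both KO lists, where the background over all strong KO regions was 0.0123%. Among the 536 strong sparse-bin regions of the KO libraries 0 were gained, which by 3 counts allows a share of up to 0.56%, for counting error only. Gained regions occupied 84 bins, of which 6 held 2, and 30 sparse bins held both a lost and a gained region. The median distance to the nearest region was 99643 bp, against 65873 bp for lost regions and 37146 bp for those called in all 4. Where both KO calls stood at the lowest background, 87 of 749 (11.6%) were gained, against 5.36% of others. Elsewhere the order was reversed, with 3 of 442 (0.679%) gained, below the 1.32% of others.

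The gained region of highest rank, 94651103–94651715 of chromosome 1, had folds of 3.30 and 3.47 in KO replicates 1 and 2 and no WT call. The region 7568082–7568803 of chromosome 11 had 3.30 and 3.96, 18546367–18547486 of chromosome 14 had 3.08 and 3.74, and 131676140–131677265 of chromosome 5 had 3.08 and 3.20. All 4 rested on summit pileups of 55 to 72 reads at the lowest background. Chromosome 14 held 2 more of the 12, at 42408171–42409306 (4.07 and 2.98) and 41445439–41446228 (3.03 and 2.93). The other 6 lay on chromosomes 3, 10, 12 and 17, with folds between 2.55 and 3.25.

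Chromosome 1 stood out among gained regions by count, an observation made after the values were seen. It held 20 of the 90 (22.2%), in 17 bins, but 9.33% of all sparse-bin regions. Gained regions made up 9.17% of its 218 sparse-bin regions, against 1.78% of its other regions. Its lost share was 11.5%, below the 15.3% of all sparse bins. KO replicates 1 and 2 called 131 and 139 of the 218, against 128 and 135 in WT replicates 1 and 2, so the genotypes overlapped. Chromosome 6 held 4 gained sparse-bin regions among 109 (3.67%), close to the 3.23% of its other regions.

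Regions called in all 4 libraries were compared by rank, each library's 43298 such regions being ranked by −log10 p, so that lists of equal length were set side by side. The 1045 in sparse bins had median ranks of 45.4 and 44.4 in KO replicates 1 and 2 and 48.1 and 47.2 in WT replicates 1 and 2. The median of the KO mean minus the WT mean was 0.11 percentile points, against 0.41 for the others, but the spread was wider, with an SD of 9.78 against 7.36. Both KO ranks lay below both WT ranks in 343 (32.8%), against 26.5% of the others and a background of 26.7%. Both KO ranks lay above both WT ranks in 351 (33.6%), against 32.2% of the others and a background of 32.2%. The share that stood higher was thus near the background, and the share that stood lower was above it. Drops of more than 10 points with both KO ranks below were seen in 156 (14.9%, background 8.37%), and rises of that size in 95 (9.09%, background 6.47%).

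The sparse-bin regions with the widest rank shifts were picked for their values. At 153852759–153853651 of chromosome 4 the ranks were 3.99 and 6.86 in the KO replicates and 62.1 and 53.2 in the WT replicates, with folds of 2.42 and 2.98 in the KO lists and 13.6 and 12.4 in the WT lists. Chromosome 12 held 2 regions 105072 bp apart that both stood lower in the KO. At 42185170–42186118 the ranks were 12.9 and 7.47 in the KO replicates and 41.4 and 42.1 in the WT replicates. At 42079169–42080097 they were 41.9 and 44.0 in the KO replicates and 71.4 and 74.1 in the WT replicates. The regions were picked among those with both KO ranks below both WT ranks, or both above. The lack of overlap between genotypes was thus fixed by the choice.

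Others stood higher. At 96023903–96024722 of chromosome 2 the ranks were 44.5 and 34.1 in the KO replicates and 2.10 and 1.42 in the WT replicates, with folds of 5.56 and 5.42 in the KO lists and 2.74 and 2.66 in the WT lists. At 15832134–15832898 of chromosome 14 they were 59.5 and 54.2 in the KO replicates and 23.7 and 16.5 in the WT replicates. At 142285856–142286811 of chromosome 1 the KO replicates differed widely, with 66.7 and 27.2 against 15.2 and 7.60 in the WT replicates.

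A few regions in sparse megabases were among the strongest calls of every list. KO replicates 1 and 2 had 9 and 8 sparse-bin calls in the top 1% of their lists, and WT replicates 1 and 2 had 11 and 11. These made up 0.67% and 0.53% of the sparse-bin calls in the KO lists and 0.64% and 0.57% in the WT lists. Each share was below the 1% of all calls. The first by rank, 98496614–98497655 of chromosome 2, had summit pileups of 18826 and 17269 reads in the KO replicates and 14221 and 14988 in the WT replicates. Its local background was 115 and 95.3 times the lowest of the KO libraries and 94.95 and 91.2 times that of the WT libraries, so its folds were moderate, 9.54 and 10.4 in the KO lists and 10.2 and 10.8 in the WT lists. The second, 40154007–40159247 of chromosome 17, was at 5241 bp the longest of the 2336 and alone in its bin. Its pileups were 24148 and 22474 in the KO replicates and 28079 and 30885 in the WT replicates, over a background 465 and 432 times the lowest in the KO libraries and 517 and 547 times in the WT libraries. In both places very many reads piled up, over a region of 1042 bp at the first and of 5241 bp at the second. Whether these places are present in more copies than the assembly holds was not tested.

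The other 10 of the 12 highest in rank had backgrounds between 5.10 and 18.3 times the lowest. The region 5925401–5925886 of chromosome 3, 486 bp long and 283420 bp from its neighbour, had folds of 15.9 and 17.9 in the KO lists and 17.8 and 19.5 in the WT lists. Chromosome 7 held 3, at 41281998–41283382 (12.4 and 12.9 in the KO lists, 13.8 and 13.99 in the WT lists), 58877836–58879422 (11.98 and 13.2, against 13.7 and 14.7) and 39201444–39202709 (14.6 and 16.8, against 16.9 and 18.4). The region 16163081–16164339 of chromosome 4 had 12.1 and 13.0 in the KO lists and 13.1 and 13.7 in the WT lists. The rest lay on chromosomes 1, 2, 16 and 19. A background over 5 times the lowest in every library was seen in 41 of the 1045 (3.92%), against 11.1% of the others called in all 4.

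The loneliest region was called once. At 21953595–21953979 of chromosome 7, with no other union region within 1713190 bp, KO replicate 2 had a fold of 1.95 from 35 reads and the other 3 libraries had no call. Of the 10 farthest from any other, 4 were called in all 4 libraries. At 100630625–100631626 of chromosome 8, with 1456151 bp to the nearest, the folds were 7.81 and 9.92 in the KO lists and 10.3 and 13.4 in the WT lists. At 12317201–12318067 of chromosome 3, 1536996 bp from the nearest, they were 4.40 and 5.42 in the KO lists and 3.13 and 2.91 in the WT lists. Its rank over the regions called in all 4 was 32.8 and 34.1 in the KO replicates and 4.26 and 2.42 in the WT replicates, without overlap. A lost region, 99122389–99123051 of chromosome 8, lay 1365263 bp from the nearest and had WT folds of 5.74 and 7.0. The gained regions 70919045–70919714 of chromosome 5 and 123790497–123790922 of chromosome 1 were also alone in their bins, with KO folds of 2.42 and 2.82 at the first and 2.31 and 2.33 at the second.

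The 128 regions alone in their bin were less often shared between libraries. Of these, 41 (32.03%) were called in all 4, 14 (10.9%) were gained and 17 (13.3%) lost. Over all union regions the shares were 60.8%, 1.53% and 7.05%. KO replicates 1 and 2 called 73 and 78 of the 128, and WT replicates 1 and 2 called 77 and 87, so the genotypes overlapped. Calls in KO libraries alone, in 1 or both, made up 29 (22.7%) and calls in WT libraries alone 39 (30.5%). Over all union regions these shares were 8.82% and 16.6%. A region alone in its bin and called in 1 genotype only would leave that bin empty without those calls. The shares of such regions are thus tied to the rule, and the values describe the regions.

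As a share of all calls, sparse megabases took less of both KO lists. They held 1350 of 49319 calls of KO replicate 1 (2.74%, interval 2.60–2.89) and 1520 of 56861 of KO replicate 2 (2.67%, 2.54–2.81). They held 1726 of 58292 calls of WT replicate 1 (2.96%, 2.83–3.10) and 1922 of 62085 of WT replicate 2 (3.10%, 2.96–3.23). The mean was 2.71% ± 0.05 in the KO and 3.03% ± 0.10 in WT (SD, n = 2 each), a difference of −0.32 percentage points. Both KO libraries lay below both WT libraries, and the two-sided exact permutation test over libraries gave p = 0.333, the smallest that 2 against 2 can give. Of the 2336 regions, 57.6% and 64.3% were called in the KO replicates and 73.3% and 81.5% in the WT replicates, against 69.3% and 79.2% and 81.3% and 86.4% of the other regions.

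**Figure D5:**
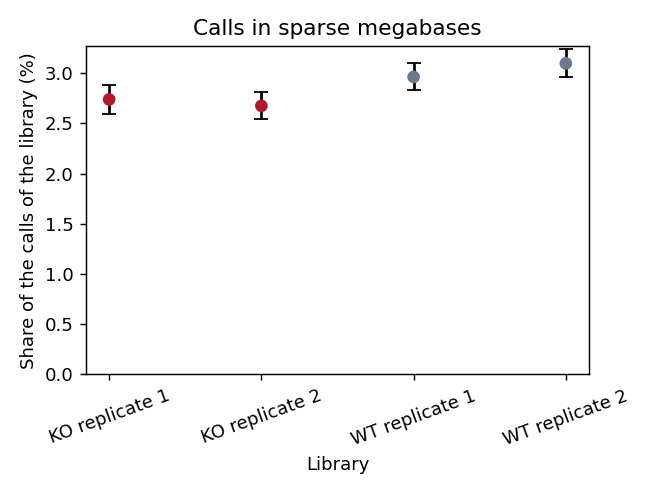
Share of each library's calls that lay in sparse megabases (y axis, %), by library (x axis), with Wilson 95% intervals for counting error. The KO libraries (2.74% and 2.67%) lie below the WT libraries (2.96% and 3.10%).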

How the data were processed

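Peak lists of 4 ATAC-seq libraries, 1 per library, were used. Per the submitters' processing notes, peaks were called with MACS2 on GRCm39. Aligner, duplicate filter and Tn5 shift: not given in the sources used here. The authors deposited for each call a fold ratio over local background, a −log10 p-value and −log10 q-value (lowest −log10 q 1.30 to 1.33), and a display score, which was not used. Fold values were compared within lists only, and those of different lists stand side by side. Read totals were not used. The lowest recovered background rises with the reads used, but it was not taken as a measure of depth. The shortest call also differed between lists, at 380 and 338 bp in KO replicates 1 and 2 and 337 and 307 bp in WT replicates 1 and 2. How far either value reflects depth was not tested. Whole pileups were recovered from fold and Poisson p-value (within 0.05 of a whole number for at least 99.99% of calls).

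Calls on chromosomes 1 to 19 were merged where they overlapped by 1 bp, and regions were binned by midpoint. Coordinates are 1-based. The lowest background means within 1% of the library's lowest. Named regions were the 12 strongest in each of the shared, lost and gained sets and the 10 farthest from others. Members and lists were chosen with earlier results of these data known. Merging, patterns and pileup recovery were tested on simulated data. Python 3.11.15, pandas 2.3.3 and scipy 1.17.1 were used. Alternatives were a stricter q-value, equal lists, 50% coverage, summit windows, other bins and each library left out.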

Additional observations from a re-analysis of the deposited data

How the results depend on the processing

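In every alternative run, lost and gained regions stayed more frequent in sparse bins than elsewhere, at 1.61 to 2.61 times for lost and 1.40 to 3.84 times for gained. The number of regions was 881 with bins of 1 to 4 regions and 4185 with bins of 1 to 12. The share called in all libraries was 47.6% with a −log10 q of at least 5, 49.8% with equal lists, 41.7% with 50% coverage, 42.7% in fixed summit windows, 38.5% with bins of 1 to 4 and 48.5% with bins of 1 to 12, and 47.1% to 53.8% with a library left out. Among the others the share called in all libraries lay between 56.9% and 69.8% in these settings. The lost share was 11.5% with equal lists, against 4.40% of the others. With a library left out it was 17.5% to 26.8%, against 8.35% to 14.3% of the others. The gained share was 3.005% under the q-value limit, 5.89% with equal lists, 4.77% with bins of 1 to 4 and 3.01% with bins of 1 to 12, and 5.31% to 9.19% with a library left out, which loosens the definition. Among the others the gained share lay between 0.782% and 6.56% in these settings. In settings added after the data were seen, strong lost regions numbered 18 with equal lists and 20 with bins of 1 to 4. With a library left out they numbered 37 to 63. Sparse bins held 14.9% of strong losses, against 2.55% of all strong WT regions. These shares were 25.4% against 2.41% with equal lists and 9.05% against 0.83% with bins of 1 to 4. Without KO replicate 2 they were 9.19% against 2.55%. Shared regions with both KO ranks below WT made up 32.8% in the main count, against 26.5% of the others. The excess was smaller with bins starting 0.5 Mb later, at 29.6% against 26.6%, and with bins of 1 to 4, at 30.1% against 26.6%. Ranked by fold it was larger, at 36.3% against 27.3%. The cause of these moves was not tested beyond what the settings themselves change. The difference in the share of calls kept its sign in all settings. It was −0.10 percentage points with bins of 1 to 4, −0.59 with bins of 1 to 12, −0.24 with equal lists and −0.39 to −0.26 with a library left out. With the replicate number as a block it was −0.32, with an exact permutation p of 0.5, the smallest for 2 pairs. The lowest recovered background was 17.2 and 17.4 reads in the KO and 14.7 and 15.1 in WT. Whether the libraries differed in depth was not tested.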

Other observations

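Chromosome X lies outside the rule. Counted in the same way, 254 of its 1038 union regions (24.5%) lay in bins with 1 to 8 regions. In these, 63.8% were called in all 4 libraries, 10.2% were lost and 1.97% gained, against 66.3%, 9.82% and 0.383% in its other bins. KO replicates 1 and 2 called 183 and 192 of the 254, and WT replicates 1 and 2 called 208 and 226. The lost share in sparse bins of chromosome X was thus close to that of its other bins, and whether this differs from the autosomes was not tested.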
